A study of Mus musculus with 12 samples.

Results

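The IL-6, IL-10 and IL-12 cytokine families are represented here by 10 genes, taken from the deposited count table by gene symbol: the cytokine subunits Il6, Il10, Il12a, Il12b, Il23a, Il27 and Ebi3, and the receptor chains Il23r, Il10ra and Il6ra. All 10 were found among the 40847 rows of the table, 7 of them passed the filter on low counts, and 3 (Il10, Il12a and Il23a) did not. The cells were mouse fetal liver alveolar-like macrophages (FLAMs), which the labels enter as a cell line, and every culture received mouse GM-CSF at 30 ng/ml. Untreated cultures had GM-CSF alone, TGFβ cultures also had recombinant human TGFβ1 at 20 ng/ml, Pam3 cultures had Pam3CSK4 at 25 ng/ml for 18 h, and Pam3+TGFβ cultures had both. The labels do not say how long the cells were kept in TGFβ. Each of these 4 groups had 3 libraries of polyadenylated RNA, and the series asks how TGFβ alters the answer of such cells to TLR2 activation. The labels do not say that the 3 libraries of a group came from separate isolations or animals, so p-values measure the spread between these libraries, which may be technical.

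As background, most of these cytokines are made of paired chains, and the chains are shared. The p40 chain, encoded by Il12b, pairs with p35 (Il12a) to give IL-12 and with p19 (Il23a) to give IL-23, while the p28 chain (Il27) pairs with the product of Ebi3 to give IL-27, and Ebi3 with p35 gives IL-35. Interleukin-6 acts through Il6ra together with the signalling chain gp130 (Il6st), IL-10 through Il10ra with Il10rb, and IL-23 through Il23r with Il12rb1, in each case by JAK kinases and STAT factors. TLR2 is the receptor for bacterial lipopeptides, which the synthetic compound Pam3CSK4 mimics, and it activates NF-κB and MAP kinases, which are known inducers of Il6 and Il12b in macrophages. TGFβ is required for the development of alveolar macrophages in the lung and is known to restrain inflammatory genes.

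Library totals ran from 34036650 to 44374115 counts. Levels are given as CPM, the count rate of edgeR on library sizes scaled by its trimmed mean method (TMM), and a floor of 3 counts in a library corresponded to between 0.0678 and 0.0953 CPM. The 7 macrophage markers Ptprc, Csf1r, Adgre1, Cd68, Fcgr1, Mertk and Itgax were detected in every group, with summed levels of 3410 to 3640 CPM untreated, 2480 to 2560 with TGFβ, 3990 to 4120 with Pam3 and 3510 to 3580 with Pam3+TGFβ. Of 6 alveolar macrophage markers, 4 had higher means with TGFβ than untreated (Siglecf at 300 against 32.1 CPM, Pparg at 225 against 117, Car4 at 774 against 448 and Krt79 at 52.5 against 0.147) and 2 had lower ones (Marco at 123 against 2150 CPM and Fabp4 at 0.132 against 31.1). The summed level of 5 neutrophil markers was 13.1 to 15.5 CPM untreated and 3.14 to 4.96 with TGFβ, nearly all S100a8, with Mpo at 0 in every library, and that of 4 epithelial markers was 159 to 182 and 391 to 403 CPM, nearly all Cdh1, with Sftpc and Nkx2-1 at 0. With Pam3 the neutrophil sum was 15.8 to 16.1 CPM and the epithelial sum 142 to 151, and with Pam3+TGFβ they were 4.77 to 5.38 and 256 to 265. The part of any of these cell types in the differences between groups was not tested. Because bulk RNA was sequenced, fewer cells of a type and less RNA per cell cannot be told apart in any value given here.

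Count levels separated the 10 genes into a detected and an undetected set. Il12a had no count in any of the 12 libraries, and Il10 had a single count in all, in Pam3 replicate 1. Il23a had 3 counts or fewer in every untreated, TGFβ and Pam3 library, Il23r in every untreated and TGFβ library, and Il12b in every TGFβ library. Il6, Il27, Ebi3, Il10ra and Il6ra were above this floor in at least 1 library of every group. A library without a count allows up to 3 counts, and this floor covers counting error only, since the reads carry no molecular identifiers. At this depth IL-10 and p35 transcripts were therefore not detectable in any group, which is not a statement that they were absent.

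**Figure D1:**
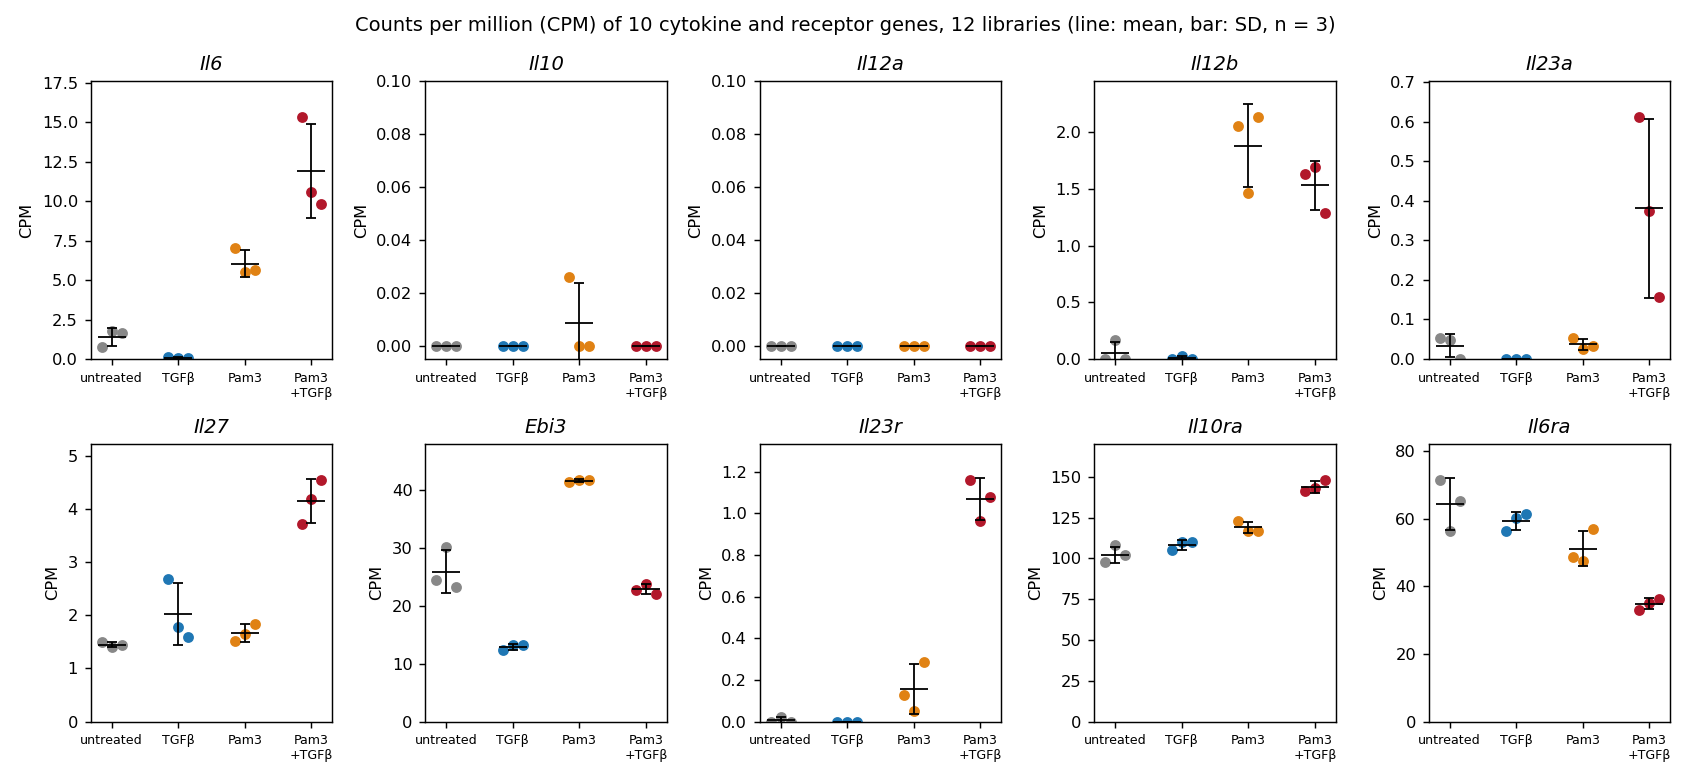
Levels in CPM (linear axis, one panel per gene, each with its own scale) of the 10 genes in the untreated, TGFβ, Pam3 and Pam3+TGFβ libraries; points are libraries, the horizontal line is the mean and the bar the SD (n = 3). Il12a lies at 0 throughout and Il10 has 1 count in the series, while the 3 Pam3+TGFβ libraries are the highest of their panels for Il6, Il23a, Il27, Il23r and Il10ra and the lowest for Il6ra.

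Promoter sequences are shown for the 4 genes whose transcripts were called higher with Pam3 in both settings and had a window to print (Il6, Il12b, Ebi3 and Il23r), so that the letters next to each start site can be read beside the responses. The windows are from RefSeq on GRCm38.p6, a build other than that of the counts, and hold 250 bases before and 50 after the annotated start, on the strand of the gene and 5′ to 3′. Windows were found for 6 of the 10 genes, and none for Il10, Il23a, Il27 and Il10ra. Capitals mark matches, on either strand, to the NF-κB motif, to AP-1 (TGANTCA) or to C/EBP (TTGCNNAA); the SMAD motif CAGACA was also searched and is not capitalised, and no 2 capitalised matches overlap in these windows.
Il6 (chr5:30012864-30013163, plus strand): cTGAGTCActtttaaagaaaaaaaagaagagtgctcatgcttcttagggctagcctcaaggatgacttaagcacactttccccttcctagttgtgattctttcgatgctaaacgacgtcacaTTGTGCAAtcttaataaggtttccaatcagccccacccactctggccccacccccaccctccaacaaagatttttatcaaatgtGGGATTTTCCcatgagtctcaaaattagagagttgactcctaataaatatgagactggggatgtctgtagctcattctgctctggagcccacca
Ebi3 (chr17:55952373-55952672, plus strand): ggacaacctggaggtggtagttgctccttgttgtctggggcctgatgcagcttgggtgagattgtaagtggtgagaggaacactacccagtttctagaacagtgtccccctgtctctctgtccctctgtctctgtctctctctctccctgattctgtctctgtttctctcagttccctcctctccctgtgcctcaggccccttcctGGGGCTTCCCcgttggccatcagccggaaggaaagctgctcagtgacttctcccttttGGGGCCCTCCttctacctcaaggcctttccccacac
Il23r (chr6:67491806-67492105, minus strand): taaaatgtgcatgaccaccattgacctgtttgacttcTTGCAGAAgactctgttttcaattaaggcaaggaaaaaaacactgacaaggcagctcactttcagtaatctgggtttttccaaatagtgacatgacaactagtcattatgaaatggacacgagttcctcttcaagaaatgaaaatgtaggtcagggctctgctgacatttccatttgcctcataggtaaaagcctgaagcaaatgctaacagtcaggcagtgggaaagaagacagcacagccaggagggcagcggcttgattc
Il12b (chr11:44399813-44400112, plus strand): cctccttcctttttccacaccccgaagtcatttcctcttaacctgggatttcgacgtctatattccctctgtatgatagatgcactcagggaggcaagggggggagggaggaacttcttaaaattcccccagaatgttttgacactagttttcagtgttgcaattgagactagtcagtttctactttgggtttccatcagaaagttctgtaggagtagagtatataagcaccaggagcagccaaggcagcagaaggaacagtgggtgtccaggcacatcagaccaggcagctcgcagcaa
The Il6 window held an NF-κB match beginning at position -44 from the start site, an AP-1 match at -249, a C/EBP match at -128 and a SMAD match at 17. The Ebi3 window had NF-κB matches at -44 and 14 and a SMAD match at -219, the Il23r window a C/EBP match at -213, and the Il12b window no match to these letters. Among all 32851 windows of 300 bases, 8.46% held the NF-κB motif, 7.81% AP-1, 10.8% C/EBP and 21.0% SMAD. A match is a description of the letters and was not tested as a binding site, and the lack of a match says only that those letters are not in the window.

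Il6 encodes interleukin-6, an acute-phase and inflammatory cytokine, and it was the gene of the 10 whose 4 groups all differed from their neighbours in level. Its gene lies on GRCm39 chr5:30218112-30224979, plus strand, and is protein-coding, with 4 exon blocks. Il6 stood at 0.736, 1.76 and 1.65 CPM in the untreated libraries, at 0.138, 0.0494 and 0.0524 CPM with TGFβ, at 7, 5.49 and 5.62 CPM with Pam3, and at 15.3, 10.6 and 9.8 CPM with Pam3+TGFβ. The groups did not overlap, in the order TGFβ, untreated, Pam3, Pam3+TGFβ, and each neighbouring pair in that order differed by the test. Raw counts with TGFβ alone were 5, 2 and 2, so its lowest group lay close to the floor.

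With Pam3 and no TGFβ, Il6 rose by 2.12 log2 units (SE 0.25, adjusted p = 1.75e-06; here and below the log2 differences, SEs and adjusted p-values are from edgeR's quasi-likelihood test with Benjamini-Hochberg adjustment over all 14749 genes tested). With TGFβ present the Pam3 response was 7.18 (SE 0.37, adjusted p = 1.4e-12). As a ratio of summed counts per library size this was 149-fold, with an exact 95% interval for counting error alone of 78.4 to 327. TGFβ acted in opposite directions in the absence and presence of Pam3: Il6 fell by 4.08 (SE 0.47, adjusted p = 3.25e-07) in unstimulated cells, a 17.7-fold difference in summed counts (9.09 to 39.4), and rose by 0.97 (SE 0.21, adjusted p = 0.000592) in stimulated cells. The interaction, defined as the response to Pam3 in cells with TGFβ less that in cells without it, was 5.06 (SE 0.52, adjusted p = 3.2e-07). Pam3+TGFβ libraries were also above untreated ones by 3.1 (SE 0.24, adjusted p = 6.09e-10).

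Il12b encodes the p40 chain shared by IL-12 and IL-23 (GRCm39 chr11:44290808-44305505, plus strand, protein-coding). Its counts were 0, 7 and 0 in the untreated libraries, 0, 1 and 0 with TGFβ, 79, 55 and 67 with Pam3, and 56, 63 and 57 with Pam3+TGFβ. The libraries with Pam3 were all above those without it, and libraries with and without TGFβ overlapped at either setting of Pam3. In CPM the Pam3 group stood at 1.88 ± 0.367 and the Pam3+TGFβ group at 1.53 ± 0.216 (SD, n = 3).

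Pam3 raised Il12b by 4.89 without TGFβ (SE 0.66, adjusted p = 4.21e-06) and by 7 with it (SE 0.86, adjusted p = 2.89e-07), and the size of these fitted values rests on a few counts in the lower group. In summed counts the Pam3 libraries were 30.6-fold above untreated (14.6 to 77.1), and because all 7 untreated counts were in untreated replicate 2, the same comparison without that library is at least 22.9-fold against a floor of 3 counts per library. With TGFβ the ratio was 174 (30.9 to 6920), against a single count. TGFβ effects on Il12b were -2.4 without Pam3 (SE 1.28, adjusted p = 0.126) and -0.29 with Pam3 (SE 0.47, adjusted p = 0.646), neither past the threshold. The value without Pam3 depended on single libraries: it was 1.85 without untreated replicate 2, -4.24 without TGFβ replicate 2, and -2.93 and called without untreated replicate 1 (adjusted p = 0.0484, in a range of 0.0484 to 0.464 over all alternatives). Its interaction of 2.11 (SE 1.35, adjusted p = 0.354) was not called, and its sign turned without 1 library: it was -2.13 without untreated replicate 2 and 3.95 without TGFβ replicate 2.

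Il23a encodes p19, the chain that makes IL-23 with p40 (GRCm39 chr10:128132008-128134621, minus strand, protein-coding). Counts were 2, 2 and 0 in untreated libraries, 0 in each TGFβ library, 2, 1 and 1 with Pam3, and 21, 14 and 7 with Pam3+TGFβ. Only the Pam3+TGFβ libraries were above the floor, and they spread over a wide range. Their summed counts were 9.74-fold those with Pam3 (3.53 to 37.4), 10.4-fold those untreated (3.77 to 39.8), and at least 4.85-fold those with TGFβ against 3 counts per library. Il23a did not pass the filter. In a fit with no filter the TGFβ effect with Pam3 was 3.26 (SE 1.29, adjusted p = 0.0425) and the interaction 6.76 (SE 2.33, adjusted p = 0.0383), and DESeq2 gave 3.37 for the first (SE 1.25, adjusted p = 0.0208) and 6.19 with no adjusted p for the second. These fitted values rest on 4, 0 and 4 counts in sum in the untreated, TGFβ and Pam3 groups. Dendritic cells are another source of p40 and p19, and the summed level of 6 of their markers was 18.8 to 23.4, 20.8 to 23.7, 21.7 to 25 and 16.8 to 18.3 CPM in the untreated, TGFβ, Pam3 and Pam3+TGFβ groups, nearly all Clec9a and Zbtb46, with Flt3 at 0 in all but 1 library; their part in these counts was not tested. Il12a, the partner of p40 in IL-12 (GRCm39 chr3:68597977-68605880, plus strand), had no count, so no ratio of p40 to p35 can be given.

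Il27 encodes p28, the chain specific to IL-27 (GRCm39 chr7:126188181-126194209, minus strand, protein-coding). It stood at 1.5, 1.4 and 1.45 CPM untreated, at 2.68, 1.78 and 1.6 CPM with TGFβ, at 1.51, 1.65 and 1.84 CPM with Pam3, and at 3.72, 4.18 and 4.54 CPM with Pam3+TGFβ. The Pam3+TGFβ libraries were all above the others, the untreated libraries were all below them, and the TGFβ and Pam3 libraries overlapped. Pam3 alone gave a difference of 0.2 (SE 0.24, adjusted p = 0.65) and TGFβ alone 0.48 (SE 0.23, adjusted p = 0.0939). With both present Il27 rose by 1.04 over TGFβ (SE 0.22, adjusted p = 0.000448), by 1.32 over Pam3 (SE 0.23, adjusted p = 2.62e-05) and by 1.52 over untreated (SE 0.23, adjusted p = 3.34e-06).

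The interaction of 0.84 for Il27 (SE 0.32, adjusted p = 0.082) did not pass the threshold, and without TGFβ replicate 1, the highest TGFβ library, it was 1.08 (adjusted p = 0.0314, in a range of 0.0314 to 0.218 over all alternatives). Il27 shares 116 exonic bases with Apobr on the opposite strand. Apobr, which encodes a lipoprotein receptor, had 98916 counts in all against 1059 for Il27, and stood at 203 ± 9.57, 231 ± 9.57, 201 ± 4.3 and 236 ± 10.1 CPM (SD, n = 3) in the untreated, TGFβ, Pam3 and Pam3+TGFβ groups. The kit was stranded but the strand setting of the counting is not given in the sources used here, so the contribution of Apobr reads to the Il27 counts was not tested.

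Ebi3 encodes the partner of p28 in IL-27 (GRCm39 chr17:56259270-56264023, plus strand, protein-coding) and had the highest level per kilobase of the 7 cytokine subunits in every group. Its levels were 24.4, 30.1 and 23.2 CPM untreated, 12.3, 13.2 and 13.2 CPM with TGFβ, 41.3, 41.7 and 41.7 CPM with Pam3, and 22.7, 23.8 and 22 CPM with Pam3+TGFβ. The Pam3 libraries were the highest and the TGFβ libraries the lowest, and the untreated and Pam3+TGFβ libraries overlapped.

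Pam3 raised Ebi3 by 0.68 without TGFβ (SE 0.08, adjusted p = 1.22e-06) and by 0.82 with TGFβ (SE 0.09, adjusted p = 2.87e-08). TGFβ lowered it in both settings, with log2 differences of -1.01 in unstimulated cells (SE 0.09, adjusted p = 4.19e-10) and -0.86 in Pam3-treated cells (SE 0.08, adjusted p = 4.27e-09). The interaction was 0.14 (SE 0.12, adjusted p = 0.513), so a difference between the responses was not detected. Between Pam3+TGFβ and untreated cells the difference was -0.18 (SE 0.09, adjusted p = 0.0753), which was called at -0.21 under upper-quartile scaling (adjusted p = 0.0394) and at -0.25 without untreated replicate 3 (adjusted p = 0.0176), in a range of adjusted p from 0.0176 to 0.62 over all alternatives. The antisense transcript Gm16712, which shares 1102 exonic bases with Ebi3, had at most 0.159 CPM in any library.

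In Pam3-treated cells TGFβ thus raised Il27 and lowered Ebi3. Per kilobase of exonic sequence, Ebi3 exceeded Il27 by a ratio of 8.45, 11.2 and 8.29 in untreated libraries, 2.38, 3.85 and 4.29 with TGFβ, 14.2, 13.1 and 11.7 with Pam3, and 3.17, 2.96 and 2.52 with Pam3+TGFβ. The ratio was lower in every library with TGFβ than in every library without it. On the log2 scale the ratio changed by -1.44 with TGFβ alone and by -2.17 when TGFβ was added to Pam3. Each of these, like the 0.49 for Pam3 against untreated and the -1.68 for Pam3+TGFβ against untreated, had an exact two-sided permutation p of 0.1, which is the smallest that 3 libraries against 3 allow. Pam3+TGFβ against TGFβ differed by -0.24 (exact permutation p = 0.5), and 5 such comparisons were made, none of which could pass 0.05 in this design.

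**Figure D2:**
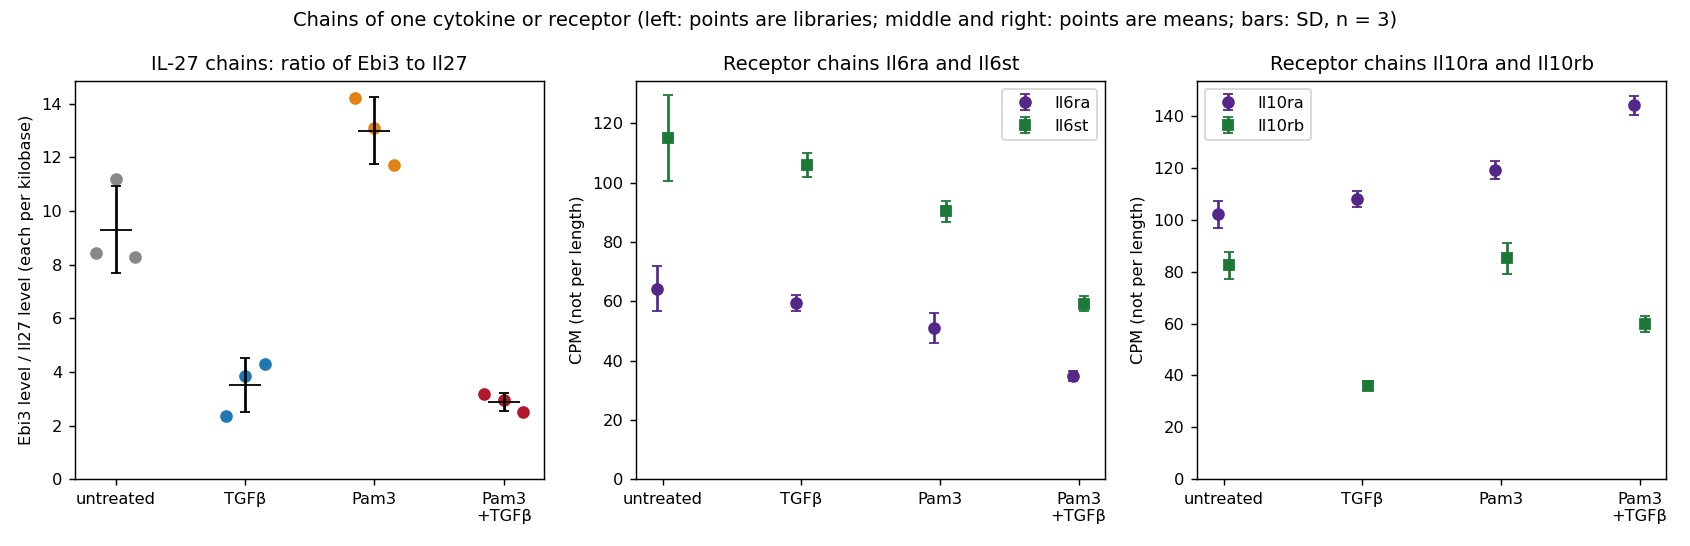
Left, ratio of Ebi3 to Il27 levels, each per kilobase, in each library (linear axis; line and bar, mean and SD, n = 3), which lies between 2.38 and 4.29 in libraries with TGFβ and between 8.29 and 14.2 in those without. Middle and right, CPM of the receptor chains Il6ra and Il6st, and Il10ra and Il10rb, as means with SD (n = 3): Il6ra and Il6st descend together over the 4 groups, while Il10rb is lowest with TGFβ alone and Il10ra is highest with Pam3+TGFβ.

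Compared per kilobase, the detected cytokine subunits spanned a wide range of levels. In Pam3 libraries Ebi3 stood at 19.3 ± 0.12 CPM per kilobase, Il6 at 2.49 ± 0.343, Il27 at 1.49 ± 0.15 and Il12b at 0.686 ± 0.134 (SD, n = 3). In Pam3+TGFβ libraries the order was Ebi3 at 10.6 ± 0.41, Il6 at 4.91 ± 1.22, Il27 at 3.71 ± 0.366, Il12b at 0.559 ± 0.0787 and Il23a at 0.17 ± 0.101. The p40 message exceeded the p19 message per kilobase by 4.18 ± 2.28 there, with 2.18 in the lowest library and 6.67 in the highest. Il6 and Il27 overlapped in that group, with libraries from 4.04 to 6.3 and from 3.33 to 4.06 CPM per kilobase.

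Il23r encodes the specific chain of the IL-23 receptor, best known from T cells and innate lymphoid cells (GRCm39 chr6:67391313-67468888, minus strand, protein-coding). Its counts were 0, 1 and 0 untreated, 0 in each TGFβ library, 5, 2 and 9 with Pam3, and 40, 36 and 48 with Pam3+TGFβ. The 3 Pam3+TGFβ libraries were all above the Pam3 libraries, which were all above the remaining 6 in CPM. Pam3 replicate 2, with 2 counts, was under the floor of 3 counts, so its separation from those 6 is not resolved. Pam3+TGFβ libraries stood at 1.16, 0.964 and 1.08 CPM.

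Against Pam3 alone, Il23r with Pam3+TGFβ was higher by 2.79 (SE 0.66, adjusted p = 0.00132), a 7.19-fold ratio of summed counts (4.26 to 13). The value was 3.51 without Pam3 replicate 3, which held 9 of the 16 Pam3 counts, and 2.37 without Pam3 replicate 2, and it was called in both. Against TGFβ, where no library had a count, it was at least 13.6-fold higher against 3 counts per library. The Pam3 response without TGFβ was 3.7 (SE 1.12, adjusted p = 0.0226), a 17-fold ratio (2.65 to 715) that rests on 16 counts against 1. That call was lost without Pam3 replicate 3 (2.99, adjusted p = 0.121), without untreated replicate 1 (3.27, adjusted p = 0.0897), without untreated replicate 3 (3.3, adjusted p = 0.0777) and in limma (2.09, adjusted p = 0.0796), over a range of adjusted p from 0.0142 to 0.121. DESeq2 gave this response no adjusted p, and Il23r was not tested in the fit of the 6 libraries compared. Thus 4 of the 10 genes were called higher in that comparison in DESeq2, in limma and in the fit of 6 libraries. The interaction of 4.64 (SE 2.49, adjusted p = 0.25) was not called, and it rests on the single untreated count: without untreated replicate 2, which leaves both groups without Pam3 at 0 counts, the fitted value was 2.79 and has no usable error.

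Because Il23r is a gene of lymphoid cells, their markers are given beside it. Of 7 markers of T, NK and innate lymphoid cells, 4 (Cd3e, Cd3g, Trbc2 and Ncr1) had no count in any library, and 6 of 7 were at the floor in the Pam3+TGFβ group. The summed level of the list was 23.2 to 24.8 CPM untreated, 0.183 to 0.581 with TGFβ, 22.4 to 24.7 with Pam3 and 0.587 to 2.39 with Pam3+TGFβ, and was nearly all Il7r (mean 23.9, 0.316, 23.3 and 1.3 CPM). The part of such cells in the Il23r counts was not tested. Its exons share 582 bases with the same-strand pseudogene Gm4761, which has no row in the count table, and the effect of the overlap on the Il23r counts was not tested.

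Il10ra encodes the ligand-binding chain of the IL-10 receptor (GRCm39 chr9:45165132-45180563, minus strand, protein-coding) and was abundant in every group, although Il10 itself was at the floor. Levels were 97.6, 108 and 102 CPM untreated, 105, 110 and 110 CPM with TGFβ, 123, 117 and 117 CPM with Pam3, and 141, 143 and 148 CPM with Pam3+TGFβ. The groups with Pam3 did not overlap those without it, and the untreated and TGFβ groups overlapped. Il10ra rose with Pam3 by 0.21 without TGFβ (SE 0.05, adjusted p = 0.00299) and by 0.41 with it (SE 0.05, adjusted p = 1.86e-07). TGFβ gave 0.08 alone (SE 0.05, adjusted p = 0.188) and raised Il10ra by 0.28 in the presence of Pam3 (SE 0.05, adjusted p = 3.91e-05). The interaction of 0.2 (SE 0.07, adjusted p = 0.0528) was not called. It was called by DESeq2 (adjusted p = 0.0248), with DESeq2-type size factors, with at least 10 counts in every library, and without Pam3 replicate 1, untreated replicate 1 or untreated replicate 3, in a range of adjusted p from 0.0248 to 0.204 over all alternatives.

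The partner chain Il10rb was lower with TGFβ. It stood at 82.4 ± 5.23, 36.1 ± 1.75, 85.1 ± 5.84 and 59.8 ± 3.07 CPM (SD, n = 3) in the untreated, TGFβ, Pam3 and Pam3+TGFβ groups. The TGFβ effect on Il10rb was -1.19 in unstimulated cells (SE 0.07, adjusted p = 4.95e-14) and -0.51 in Pam3-treated cells (SE 0.06, adjusted p = 3.17e-07), and the interaction was 0.68 (SE 0.09, adjusted p = 3.99e-06). The count ratio of Il10ra to Il10rb, not corrected for length, was 1.24 ± 0.0307 untreated, 3.0 ± 0.212 with TGFβ, 1.4 ± 0.109 with Pam3 and 2.41 ± 0.19 under the combination (SD, n = 3). No library with TGFβ had a ratio below 2.27, and none without it had one above 1.47.

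Il6ra encodes the ligand-binding chain of the IL-6 receptor (GRCm39 chr3:89771366-89820719, minus strand, protein-coding) and was lowest in the group where Il6 was highest. Levels were 71.4, 56.2 and 65.3 CPM untreated, 56.3, 60.3 and 61.4 CPM with TGFβ, 48.7, 47.6 and 57 CPM with Pam3, and 33.1, 35.2 and 36.3 CPM with Pam3+TGFβ. The Pam3+TGFβ libraries were below all others, and the other 3 groups overlapped with their neighbours. Il6ra fell by 0.33 with Pam3 alone (SE 0.08, adjusted p = 0.0037) and by 0.77 with Pam3 in the presence of TGFβ (SE 0.08, adjusted p = 2.8e-08). TGFβ lowered Il6ra in Pam3-treated cells, at -0.55 (SE 0.08, adjusted p = 3.65e-06). In unstimulated cells it gave -0.11 (SE 0.08, adjusted p = 0.234), a value that was -0.2 and called without untreated replicate 2 (adjusted p = 0.0193) and -0.01 without untreated replicate 1, in a range of adjusted p from 0.0193 to 0.926. The interaction of -0.43 (SE 0.11, adjusted p = 0.00798) was called.

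Il6st, which encodes gp130, the shared signalling chain, had the same order of group means as Il6ra. It stood at 115 ± 14.4, 106 ± 4.1, 90.3 ± 3.57 and 59.1 ± 2.53 CPM (SD, n = 3), and its interaction was -0.5 (SE 0.1, adjusted p = 0.000704). The count ratio of Il6ra to Il6st was 0.561 ± 0.0203, 0.561 ± 0.00725, 0.565 ± 0.0401 and 0.591 ± 0.0441 in the untreated, TGFβ, Pam3 and Pam3+TGFβ groups, and these ranges overlapped. Of the proteases that shed the IL-6 receptor from the cell surface, Adam17 rose with Pam3 by 0.46 (SE 0.05, adjusted p = 1.04e-07) and by 0.72 with TGFβ present (SE 0.05, adjusted p = 5.69e-12), with an interaction of 0.26 (SE 0.07, adjusted p = 0.0097). TGFβ lowered Adam17 without Pam3 (-0.44, SE 0.05, adjusted p = 4.06e-08) and with it (-0.18, SE 0.05, adjusted p = 0.00456). Its mean was 404 CPM with Pam3 and 358 CPM with Pam3+TGFβ. Adam10 was not called with Pam3 alone (-0.12, SE 0.06, adjusted p = 0.142) and fell with Pam3 in the presence of TGFβ, at -0.41 (SE 0.06, adjusted p = 1.15e-06), with an interaction of -0.29 (SE 0.08, adjusted p = 0.0107). TGFβ raised Adam10 without Pam3 (0.21, SE 0.06, adjusted p = 0.0021), and its effect with Pam3 was not called (-0.08, SE 0.06, adjusted p = 0.285).

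**Figure D3:**
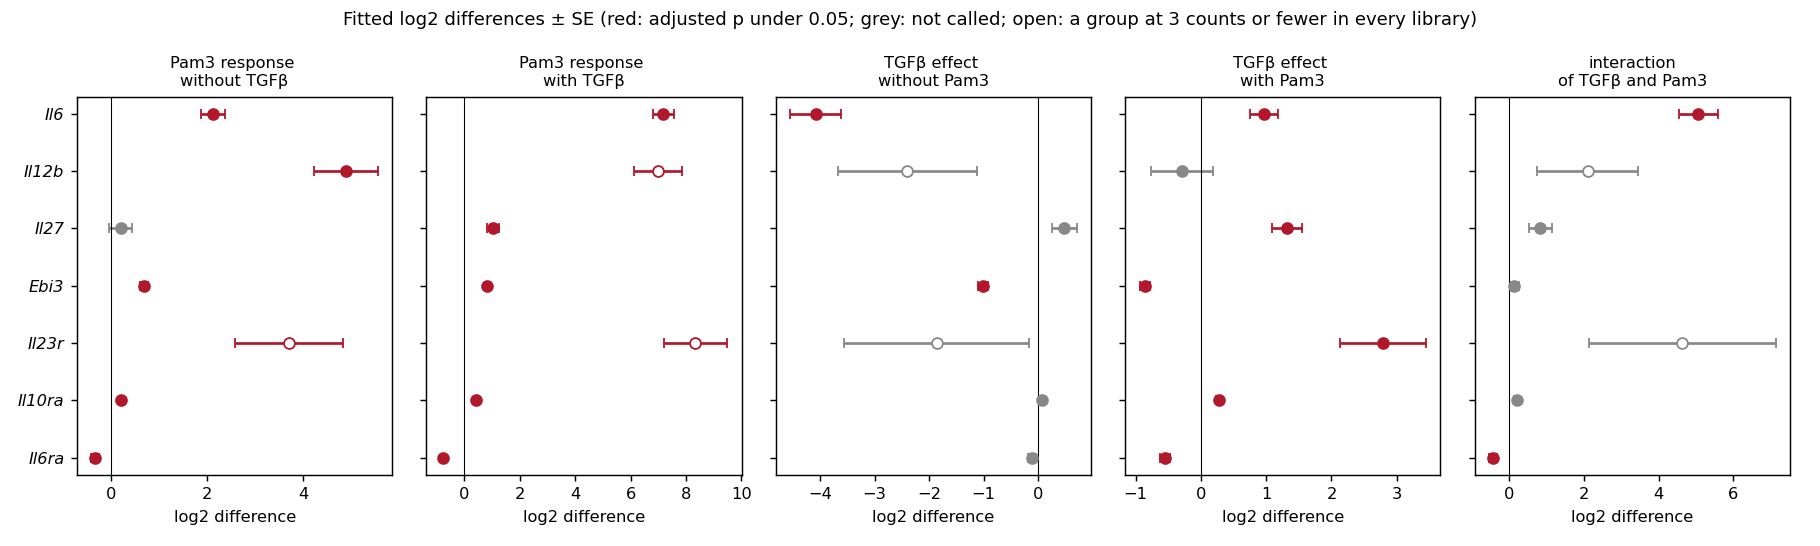
Fitted log2 differences (horizontal axis, each panel with its own scale) with SE bars for the 7 genes tested, in the Pam3 responses without and with TGFβ, the TGFβ effects without and with Pam3, and the interaction. Red marks an adjusted p under 0.05, grey a gene not called, and open symbols a comparison with a group at 3 counts or fewer in every library; Il6 (5.06) and Il6ra (-0.43) are the genes called in the interaction panel.

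Counted over the 7 genes tested, Pam3 without TGFβ raised 5 (Il6, Il12b, Ebi3, Il23r and Il10ra) and lowered 1 (Il6ra), while over the whole table the shares called were 9.62% higher and 8.66% lower. With TGFβ present, Pam3 raised 6 and lowered 1, beside 20.4% and 18.1% of all genes. TGFβ without Pam3 lowered Il6 and Ebi3, beside 28.1% of all genes. It raised 0 of the 7 in edgeR, beside 22.9% of all genes, with 0 of the 7 higher at an unadjusted p under 0.05 and 0 in DESeq2 and in limma. Il10ra was called higher there without untreated replicate 2 and Il27 without TGFβ replicate 3. TGFβ with Pam3 raised 4 (Il6, Il27, Il23r and Il10ra) and lowered 2 (Ebi3 and Il6ra), beside 21.5% and 23.8%. In the interaction 1 (Il6) was called higher and 1 (Il6ra) lower, beside 10.3% and 5.67%. Il12b and Il23r passed the filter through the groups in which they were high, so their presence among the tested genes already depends on a difference, and these counts are a description and no support for the genes as a set.

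Comparisons across the diagonal of the design completed the order of the groups. Pam3+TGFβ against untreated gave 5 genes called higher and Il6ra lower, beside 25.0% and 27.2% of all genes. Pam3 against TGFβ gave 5 called higher, with Ebi3 at 1.69 (SE 0.09, adjusted p = 1.42e-14), and Il6ra lower at -0.22 (SE 0.08, adjusted p = 0.0236), beside 29.6% and 24.5%. The Il10ra difference of 0.13 in that comparison (SE 0.05, adjusted p = 0.0273) lost its call without any 1 of several libraries, with a value of 0.09 without TGFβ replicate 1 (adjusted p = 0.198, in a range of 0.0121 to 0.198), and Il6ra lost its call without Pam3 replicate 1, Pam3 replicate 2, TGFβ replicate 2 or TGFβ replicate 3. These comparisons share libraries with each other and with those above, so their agreement is not independent evidence.

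Other genes of the same pathways were taken from lists chosen with earlier results of these data known. Of 12 other IL-6 and IL-10 family cytokines, 3 were tested (Lif, Osm and Clcf1), and Il31, Il20, Il22 and Il24 had no count. TGFβ alone raised 2 and lowered 1 of these 3, beside 22.9% and 28.1% of all genes. Lif, which encodes leukaemia inhibitory factor, stood at 5.08 ± 0.684 CPM untreated, 67.8 ± 3.54 with TGFβ, 6.2 ± 1.22 with Pam3 and 63.9 ± 2.52 when the agents were combined (SD, n = 3). It rose with TGFβ by 3.74 in unstimulated cells (SE 0.11, adjusted p = 1.7e-18) and by 3.37 in Pam3-treated cells (SE 0.1, adjusted p = 1.09e-17). Osm, which encodes oncostatin M, rose with TGFβ by 2.1 (SE 0.08, adjusted p = 5.38e-17), from 19.9 ± 1.95 to 85.4 ± 1.2 CPM. Clcf1 fell with TGFβ by 3.14 (SE 0.48, adjusted p = 4.39e-06). It was the 1 gene of the 3 that rose with Pam3 in the presence of TGFβ, by 1.52 (SE 0.5, adjusted p = 0.0173), beside 20.4% of all genes. Its means were 1.5, 0.17, 1.49 and 0.488 CPM in the untreated, TGFβ, Pam3 and Pam3+TGFβ groups, and it passed the filter through groups other than TGFβ alone. The interactions of Lif (-0.37, adjusted p = 0.101), Osm (0.09, adjusted p = 0.679) and Clcf1 (1.53, adjusted p = 0.113) did not pass the threshold.

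Of 13 other receptor chains of these families, 9 were tested, and TGFβ without Pam3 lowered 8, beside 28.1% of all genes, with a median difference of -1.08 beside -0.008 over all genes. With Pam3 present TGFβ lowered 6 of the 9, beside 23.8% of all genes, with a median of -0.61. Il31ra and Il12rb1 passed the filter through groups without TGFβ, at 0.538 and 0.66 CPM untreated against 0.017 and 0.122 with TGFβ. Their presence among the tested chains thus already depends on a difference, and these counts and medians are a description only. Of the 3 receptor chains among the 10 genes (Il23r, Il10ra and Il6ra), none was called with TGFβ alone, although without untreated replicate 2 Il10ra was called higher (0.12, adjusted p = 0.0437) and Il6ra lower (-0.2, adjusted p = 0.0193). With Pam3 present TGFβ raised Il23r and Il10ra and lowered Il6ra. The IL-12 and IL-23 receptor chain Il12rb1, the partner of Il23r, was scarce, at 0.66 ± 0.301, 0.122 ± 0.0168, 0.394 ± 0.0446 and 0.247 ± 0.0699 CPM (SD, n = 3), and its interaction of 1.73 was not called (SE 0.84, adjusted p = 0.189). It was lower with TGFβ alone, at -2.4 (SE 0.61, adjusted p = 0.00171). Il31ra (interaction -1.86, SE 1.51, adjusted p = 0.494) and Lifr (-1.02, SE 0.51, adjusted p = 0.209) were the other chains with the largest fitted interactions, and neither was called. Il31ra stood at means of 0.017 CPM with TGFβ and 0 with Pam3+TGFβ, below the floor, so the size of its interaction is not resolved. The interaction was called for 4 of the 9, beside 10.3% of all genes higher and 5.67% lower. It was higher for Il12rb2 (0.78, SE 0.08, adjusted p = 6.88e-08), the second chain of the IL-12 receptor. It was also higher for Il10rb (0.68, SE 0.09, adjusted p = 3.99e-06), the second chain of the IL-10 receptor. Il20rb was higher too (0.63, SE 0.15, adjusted p = 0.00354), and Il6st lower. Il12rb2 stood at means of 81.9, 47.7, 90.7 and 90.5 CPM in the untreated, TGFβ, Pam3 and Pam3+TGFβ groups. Il20rb stood at 15.7, 9.22, 19.4 and 17.6 CPM. TGFβ effects on these 2 genes in Pam3-treated cells were not called, at 0 (adjusted p = 0.963) and -0.14 (adjusted p = 0.29).

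Of the JAK, STAT and SOCS genes downstream of these receptors, 4 of 6 tested were called higher in the interaction, beside 10.3% of all genes, with a median of 0.29 beside 0.005 over all genes. Socs3, which encodes the feedback inhibitor induced by IL-6 and STAT3, stood at 45 ± 8.86, 10.5 ± 1.06, 113 ± 6.84 and 104 ± 5.99 CPM (SD, n = 3) in the untreated, TGFβ, Pam3 and Pam3+TGFβ groups, with an interaction of 1.97 (SE 0.16, adjusted p = 1.21e-06). Socs1 gave 1.78 (SE 0.18, adjusted p = 4.49e-08), with 6.7 ± 0.537, 2.18 ± 0.508, 17.7 ± 0.439 and 19.9 ± 2.43 CPM. Jak2, which encodes a kinase bound to several of these receptor chains, gave 0.34 (SE 0.08, adjusted p = 0.00622). For Socs1 and Socs3 the TGFβ libraries were the lowest and the 2 groups with Pam3 stood close together, and the TGFβ effects in Pam3-treated cells were not called, at 0.17 for Socs1 (SE 0.11, adjusted p = 0.234) and at -0.12 for Socs3 (SE 0.11, adjusted p = 0.391).

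All 6 genes known to be induced by IL-10 through STAT3 in macrophages were tested, and the interaction was called for 4, higher in 3 and lower in 1 (Il4ra, -0.22, adjusted p = 0.0188), beside 10.3% and 5.67% of all genes. Bcl3, a nuclear IκB protein, stood at 19.3 ± 1.86, 11 ± 0.174, 24.6 ± 2.34 and 40.4 ± 3.92 CPM (SD, n = 3), and its interaction was 1.53 (SE 0.13, adjusted p = 1.94e-09). Zfp36, which encodes an RNA-decay factor for cytokine messages, gave 0.62 (SE 0.09, adjusted p = 1.04e-05) and Sbno2 0.34 (SE 0.06, adjusted p = 0.000439). Zfp36 stood at means of 67.5, 31.5, 64.7 and 46.6 CPM in these groups. TGFβ lowered it in Pam3-treated cells, at -0.47 (SE 0.06, adjusted p = 6.44e-07), while Sbno2 was higher there, at 0.31 (SE 0.05, adjusted p = 3.39e-06). These genes respond to other signals too, and Il10 was at the floor in every group here. The part of IL-10 in these differences was not tested.

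The 14 transcription factors listed for the cytokine genes were all tested, and Pam3 raised 7 without TGFβ and 12 with it, beside 9.62% and 20.4% of all genes. The interaction was called for 9, higher in 8 and lower in 1 (Irf8, -0.29, adjusted p = 0.00447), beside 10.3% and 5.67% of all genes. Atf3, a repressor of several inflammatory genes, stood at 87.5 ± 5.16 CPM untreated, 10 ± 0.514 with TGFβ, 87.7 ± 13.6 with Pam3 and 50.7 ± 1.32 when the agents were combined (SD, n = 3), and its interaction was 2.33 (SE 0.12, adjusted p = 4.9e-12). Nfkbiz, which encodes IκBζ, a nuclear cofactor needed for Il6 induction, had mean levels of 8.55 ± 0.922, 3.35 ± 0.82, 25.7 ± 1.79 and 35.2 ± 3.22 CPM, and its interaction was 1.8 (SE 0.18, adjusted p = 5.3e-08). Irf1 gave 1.28 (SE 0.08, adjusted p = 5.9e-12), rising to 116 ± 2.74 CPM with Pam3+TGFβ from 54.2 ± 0.183 untreated.

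**Figure D4:**
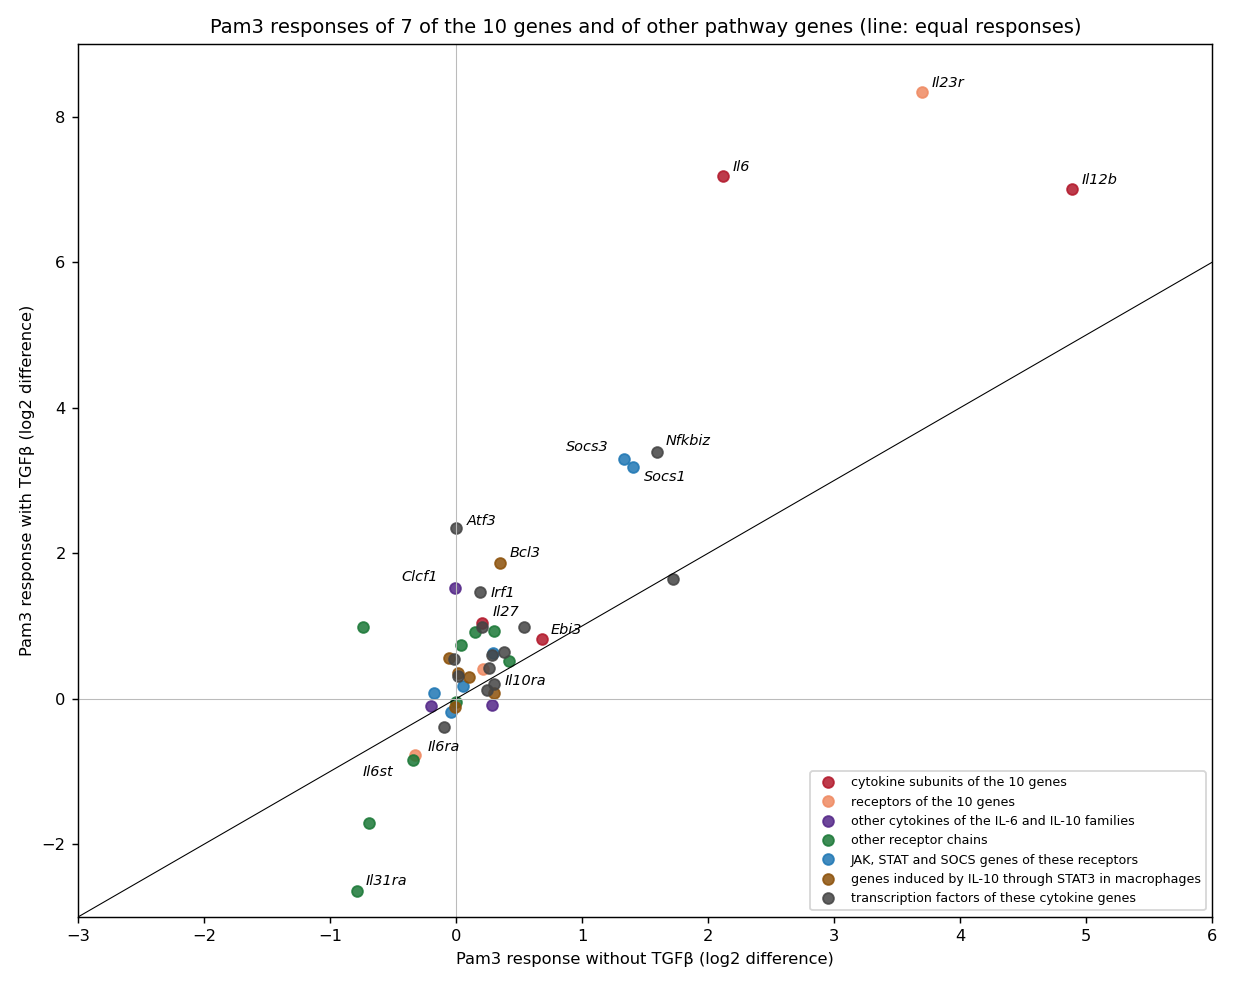
Pam3 response with TGFβ (vertical axis, log2 difference) against the Pam3 response without TGFβ (horizontal axis, log2 difference). Shown are the 7 tested genes of the 10 and the tested genes of the pathway lists, without the proteases Adam10 and Adam17. Each point is a gene and the line marks equal responses. The axes compare separate libraries within 1 fit; Il6, at 2.12 and 7.18, lies far above the line, and Il6ra and Il6st, at -0.33 and -0.77 and at -0.34 and -0.84, lie next to each other below it.

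Log2 CPM, with a prior count of 2, was centred on the mean of each gene. Likeness in pattern was the root mean square difference over the 12 libraries. The genes closest to each tested gene were found among 10901 candidate genes, as those with the smallest difference. For Il6 they were the chemokine gene Cxcl2 (0.43) and the activation marker Cd69 (0.56), against an SD of Il6 itself of 2.54. Cxcl2 stood at means of 20.7, 1.2, 60.4 and 90.4 CPM in the untreated, TGFβ, Pam3 and Pam3+TGFβ groups. For Il23r they were Il1a (0.44) and Il1b (0.45), the interleukin-1 genes, against an SD of 1.8, with Il1b at means of 61.6, 65.7, 356 and 1560 CPM. Il23r had at most 1 count in each library without Pam3, so its log2 pattern depends on the prior count. For Il12b, which also had few counts without Pam3, the nearest were the interferon-inducible genes Ifi206 (0.7) and Oasl2 (0.74), against an SD of 2.37. This match was poorer, in that both genes were highest with Pam3+TGFβ.

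Ebi3 was nearest to Adgre1 (0.11), which encodes the macrophage protein F4/80 and stood at means of 303, 145, 477 and 271 CPM, and to Fam102b (0.14). Il27 was nearest to the immunoproteasome gene Psmb9 (0.19) and the noncoding RNA Zfas1 (0.2), Il10ra to Rab32 (0.05) and Vav1 (0.06), and Il6ra to its own partner Il6st (0.07) and to Slc43a2 (0.09). The SDs of the genes themselves were 0.61 for Ebi3, 0.6 for Il27, 0.19 for Il10ra and 0.35 for Il6ra, so these differences are not comparable between genes without them. These likenesses are descriptions over 12 libraries in 4 groups, and no p is attached to them.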

How the data were processed

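Polyadenylated RNA of 12 libraries, 3 in each of 4 groups taken from the sample titles, was sequenced from a stranded kit. Per the labels' protocols, the authors mapped reads with Bowtie2 2.4.1, using its defaults and the GRCm39 genome, and counted them with featureCounts of Subread 2.0.0, and they used DESeq2 1.36.0 in R 4.2.1. Bowtie2 does not split reads over introns, so junction reads can be lost, and the annotation, strand setting and handling of multiply aligned reads are not given in the sources used here. The deposited counts are whole numbers per gene symbol. The deposited normalized signal equals each raw count divided by a constant for its library, as checked on the file, and was used for an alternative only.

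Raw counts were analysed in R 4.3.3. Genes were kept by filterByExpr of edgeR 4.0.16 at a minimum count of 10 (14749 genes), scaled by TMM, and fitted as 4 group means over all 12 libraries with the robust quasi-likelihood F test. Calls required an adjusted p under 0.05 (Benjamini-Hochberg). SEs are the size of a log2 difference divided by the square root of F. Folds against low counts are ratios of summed counts with exact 95% intervals, or bounds against a floor of 3 counts per library where a group had none. A chi-square test of the counts of each replicate pair gave 9.99 to 220 per degree of freedom, above sampling noise in every pair, so all libraries were kept as separate. Pairs with untreated replicate 3 gave 159 and 183 (17.7 for the other pair), and those with TGFβ replicate 2 gave 161 and 217 (16 for the other pair). Pairs with Pam3 replicate 1 gave 133 and 220 (24.6 for the other pair), and Pam3+TGFβ pairs gave 9.99 to 28. The fit was tested on simulated counts. Positions come from the GENCODE annotation of GRCm39, and per-kilobase levels use its exonic bases.

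The 10 genes, the pathway lists and the tests were chosen with earlier results of these data known, and some genes of the lists are not reported here and not counted in them. Named genes are the 10, up to 3 genes per list with the largest interaction (and, named after their values were seen, chains and cytokines that pair with the 10 and genes called against or beside a list's count, such as Il20rb, Il4ra and Irf8), and the 2 nearest patterns with a mean of at least 1 CPM. Alternatives were other scalings, DESeq2 1.42.0, limma 3.58.1 on log2 of the deposited normalized signal plus 1, other filters, a replicate block, the 6 libraries compared, and leaving out each library. Those for the comparisons of Pam3+TGFβ with untreated and of Pam3 with TGFβ, and the Il12b bound, were added after the data were seen.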

Additional observations from a re-analysis of the deposited data

Results flagged for a closer look

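Among the 7 genes tested, the response to Pam3 differed between cells with and without TGFβ for 2, 1 higher and 1 lower, by the interaction term of edgeR's quasi-likelihood test, beside 10.3% and 5.67% of all genes. Il6 gave 5.06 on the log2 scale (SE 0.52, adjusted p = 3.2e-07): its Pam3 response was 2.12 without TGFβ and 7.18 with TGFβ, and the 3 TGFβ libraries from which the second response is measured held only 5, 2 and 2 counts. Il6ra gave -0.43 (SE 0.11, adjusted p = 0.00798), with responses of -0.33 and -0.77. Over all alternatives and left-out libraries in which each gene was tested, the Il6 interaction ran from 4.61 to 5.63 and the Il6ra interaction from -0.54 to -0.34, and both were called in each. Single outlying libraries were not tested for within groups of 3.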

How the results depend on the processing

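For the 7 genes over 7 comparisons, leaving out 1 library gave 588 values, of which 15 lost the call, 9 gained it, 2 turned direction and 562 kept their call with no turn (1 of them, the TGFβ effect on Il23r without Pam3, at 0). Both that turned were uncalled values of Il12b without untreated replicate 2, the TGFβ effect without Pam3 (from -2.4 to 1.85, in a range of -4.24 to 1.85 over the libraries left out) and the interaction (from 2.11 to -2.13, in a range of -2.13 to 3.95). The other alternatives gave 358 values, of which 4 lost the call, 4 gained it and 350 kept direction and call. A filter of at least 10 counts in every library left 4 of the 10 genes in the test, so the genes called higher were 2 for Pam3 without TGFβ, 3 for Pam3 with TGFβ and 2 for TGFβ with Pam3, and 1 was called lower for TGFβ without Pam3; Il6 was not tested there, and Il10ra was the gene called higher in the interaction. The interaction had 2 genes called higher with DESeq2-type size factors, with DESeq2 and with no filter, Il10ra joining Il6 in the first of these and in DESeq2, and Il23a in the last. Without 1 library, where Il23a entered the test in each fit but those without Pam3+TGFβ replicate 1 or 2, the interaction had 1 to 3 genes called higher (3 without Pam3 replicate 1 and without untreated replicate 3), TGFβ without Pam3 had 0 to 1 higher and 2 to 3 lower, and Pam3 had 4 to 5 higher without TGFβ and 6 to 7 with it. TGFβ with Pam3 had 4 to 5 genes called higher. Where a group kept 2 libraries, they are assumed to vary like the others.

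Replicate numbers are shared between groups. After group means were subtracted, the 18 correlations of same-numbered libraries ran from -0.174 to 0.3, and 7 were over 0.1. With 3 libraries per group these values cannot settle whether the numbers pair the samples, and no pairing was assumed in the main fit. With a replicate block the interaction of Il6 was 5.07, the Pam3 response of Il23r without TGFβ was 3.62 (adjusted p = 0.0382), and no count of called genes moved. The depth limits Il10, Il12a and Il23a, and every fold against a group with 9 counts or fewer in sum.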
